A study of Mus musculus with 12 samples.

Results

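The cytochrome P450 genes of the Cyp2 family and of the Cyp3a subfamily were followed in mouse liver after loss of the transcription factor gene Atf4 and after tunicamycin. Members were the loci that carry a gene symbol of Cyp2 with any subfamily letter, or of Cyp3a, followed by a number. This rule found 56 of 27109 loci, with 55 symbols between them. Poly(A) RNA of C57BL/6 livers was sequenced in 12 libraries, 3 in each of 4 groups. Wild-type mice and mice labelled LsATF4-/-, a liver-specific Atf4 knockout, received by intraperitoneal injection either 0.3% DMSO, the solvent, or 1 mg/kg tunicamycin, and all livers were taken after 6 h. Tunicamycin blocks N-linked glycosylation and so causes stress of the endoplasmic reticulum (ER), during which cells make the ATF4 protein. The sources used here do not give the promoter that drives the deletion, the deleted exons or the age of the mice. No label says whether the 3 libraries of a group came from separate mice, so the authors' p-values may measure technical spread only.

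P450 enzymes of these families sit in the ER membrane, chiefly of hepatocytes around the central vein, and oxidise drugs, toxins, steroids, bile acids and arachidonic acid. Each carries a haem and takes electrons from P450 reductase (Por). In liver the nuclear receptors CAR (Nr1i3) and PXR (Nr1i2) switch on Cyp2b and Cyp3a genes when foreign compounds arrive, HNF4A keeps many of the genes on, and growth hormone sets which of them are male- or female-biased. In the mouse they stand in tandem clusters of close copies, so that a short read can belong to several of them.

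The deposited table holds 1 value per locus and group, in FPKM (fragments scaled to transcript length and sequencing depth), with the 3 libraries pooled. Depth per library, an SD and a value without 1 library are therefore not given here. A locus was called higher or lower when its q-value in the authors' deposited table, from Cuffdiff, was under 0.05. The locus that holds Atf4, merged with Cacna1i (chromosome 15, 80085614 to 80228829, mm9), read 46.9 FPKM in wild-type DMSO livers and 356 after tunicamycin, and in knockout livers 22.8 and 114. It was called higher with tunicamycin in both genotypes (log2 2.92 in wild type and 2.32 in the knockout, authors' deposited table). Between genotypes it was lower in the knockout under tunicamycin (log2 -1.64 in the authors' deposited table) but under DMSO it was not called (log2 -1.04, q 0.270, same table). Wherever 4 values follow one another they stand in this order of groups. Lane 5 carried the 3 knockout DMSO libraries and lane 4 all the others, and in comparisons with knockout DMSO the lane and the group cannot be told apart. Hepatocyte markers were abundant in every group, with Apoa1 at 5924, 3759, 4353 and 3320 FPKM, while albumin is listed at 0 in all 4 groups with a status of too much data. Markers of the adrenal gland, muscle and fat were high in the knockout tunicamycin group, but not those of every other tissue looked up. Kidney markers (5 loci) summed to at most 0.0088 FPKM in any group. Those of intestine (4 loci) summed to 74.8, 18.3, 44.8 and 16.3 FPKM, and those of exocrine pancreas (4 loci) to 31.3, 13.1, 25.6 and 11.1. Markers of the adrenal gland (12 symbols at 11 loci) summed to 9.28, 23.6, 6.78 and 1351 FPKM, those of muscle (7 loci) to 1.56, 4.08, 1.87 and 265, and those of fat (5 loci) to 2.25, 8.65, 5.71 and 127. All 11 adrenal loci and all 7 muscle loci reached 1 FPKM in the knockout tunicamycin group, and in wild type with DMSO the adrenal medulla genes Th and Pnmt are listed at 0. The 7 endothelial markers summed to 59.4, 86.7, 104 and 70.5 FPKM.

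The close copies are shown first because they decide how far a value belongs to 1 gene. A coding transcript was found in GENCODE M21 (build GRCm38) for 54 of the 55 symbols. The symbol without one was Cyp2d13, so how much of its sequence is shared was not assessed. The steroid hydroxylase gene Cyp2a4 and the coumarin hydroxylase gene Cyp2a5 are the closest pair among the genes whose loci carry high values, with 98.45% identity and 23 differing bases over a coding length of 1485. Below are 60 coding bases of each, positions 596 to 655 counted from the start codon, 5′ to 3′, with the 4 positions that differ in capitals, as in the sets after it.
Cyp2a4: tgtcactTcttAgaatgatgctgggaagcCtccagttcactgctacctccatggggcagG
Cyp2a5: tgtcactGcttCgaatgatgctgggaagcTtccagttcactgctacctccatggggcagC
Cyp2b9 and Cyp2b13, both known as female-biased, are 92.68% identical, and 13 of the 60 bases at coding positions 1056 to 1115 differ.
Cyp2b9: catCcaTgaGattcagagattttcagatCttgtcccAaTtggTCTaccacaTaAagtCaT
Cyp2b13: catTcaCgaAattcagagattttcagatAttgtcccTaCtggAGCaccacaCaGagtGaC
In the Cyp3a cluster, Cyp3a11, the main PXR-induced Cyp3a gene of mouse liver, is 95.18% identical to Cyp3a41a and 92.81% to Cyp3a16. At coding positions 616 to 675 of the 4 genes, 15 positions vary.
Cyp3a11: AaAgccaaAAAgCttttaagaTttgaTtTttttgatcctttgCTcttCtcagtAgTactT
Cyp3a41a: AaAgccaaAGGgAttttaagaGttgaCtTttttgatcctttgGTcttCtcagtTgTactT
Cyp3a44: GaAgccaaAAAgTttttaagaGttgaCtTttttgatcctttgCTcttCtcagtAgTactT
Cyp3a16: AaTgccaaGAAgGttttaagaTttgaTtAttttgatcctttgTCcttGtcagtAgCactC
Cyp2c29, Cyp2c38 and Cyp2c39 are printed because Cyp2c39 had the largest fall of all members. Cyp2c38 and Cyp2c39 are 94.23% identical, and at coding positions 279 to 338 the 3 genes vary at 17 positions.
Cyp2c29: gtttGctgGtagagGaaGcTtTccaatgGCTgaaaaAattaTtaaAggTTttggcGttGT
Cyp2c38: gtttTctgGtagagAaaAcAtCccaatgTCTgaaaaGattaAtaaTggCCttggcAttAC
Cyp2c39: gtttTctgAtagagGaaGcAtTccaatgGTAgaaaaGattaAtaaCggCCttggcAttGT

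Promoters from RefSeq (build GRCm38.p6) were matched for 47 of the 55 symbols, 50 promoters in all, and the 250 bases before each start site were searched on both strands for 6 motifs. The motif CAAAGTCCA, bound by HNF4 proteins, stood in 8 of the 50 (16%) against 0.384% of all 32851 promoters. The 8 windows are printed with the motif in capitals, since 6 of them belong to Cyp2c genes and the remaining pair to Cyp3a genes.
Cyp3a16, chr5:145469804-145469832 (minus strand): aagagacgacCAAAGTCCAggtgatgcag
Cyp3a11, chr5:145879945-145879973 (minus strand): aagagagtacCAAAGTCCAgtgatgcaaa
Cyp2c65, chr19:39060880-39060908 (plus strand): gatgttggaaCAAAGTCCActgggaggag
Cyp2c67, chr19:39649149-39649177 (minus strand): atcattgagaCAAAGTCCAtttggaagca
Cyp2c68, chr19:39741160-39741188 (minus strand): atcattgaaaCAAAGTCCAattggaagag
Cyp2c40, chr19:39812841-39812869 (minus strand): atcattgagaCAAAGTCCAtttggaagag
Cyp2c69, chr19:39886826-39886854 (minus strand): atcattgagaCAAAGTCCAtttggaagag
Cyp2c70, chr19:40187332-40187360 (minus strand): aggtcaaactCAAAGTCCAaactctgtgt
Around the motif the flanks of Cyp2c40, Cyp2c67, Cyp2c68 and Cyp2c69 are nearly the same, so these windows count as copies of one another. The half-site AGGTCA, part of many nuclear receptor sites, stood in 16 member promoters (32%) against 14% of all. TATAAA, the letters of the TATA box, stood in 21 (42%) against 12.4%. In member promoters these letters stood from 16 to 234 bases before the start site, on either strand, and their use was not tested. The composite element TGATGNAA, bound by dimers of C/EBP and ATF proteins such as ATF4, stood in 1 member promoter, that of Cyp3a11 (2%), against 3.45% of all. Neither TGACGTGG, the unfolded protein response element (0.563% of all), nor the ER stress element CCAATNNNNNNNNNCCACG (0.113% of all) was in any member promoter. The Cyp3a11 promoter is printed because it holds 4 of the 6 motifs, in capitals in the order TATAAA, half-site, HNF4 motif and composite element. Its TATAAA stands 234 bases before the start site.
Cyp3a11, chr5:145879855-145880104 (minus strand): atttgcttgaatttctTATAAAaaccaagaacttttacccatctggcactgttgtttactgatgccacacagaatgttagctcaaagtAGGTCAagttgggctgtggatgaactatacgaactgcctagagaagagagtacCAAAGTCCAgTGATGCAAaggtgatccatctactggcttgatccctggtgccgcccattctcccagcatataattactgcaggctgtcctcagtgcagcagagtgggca
That of Cyp2b10, the gene with the larger of both rises, holds none of the 6.
Cyp2b10, chr7:25897408-25897657 (plus strand): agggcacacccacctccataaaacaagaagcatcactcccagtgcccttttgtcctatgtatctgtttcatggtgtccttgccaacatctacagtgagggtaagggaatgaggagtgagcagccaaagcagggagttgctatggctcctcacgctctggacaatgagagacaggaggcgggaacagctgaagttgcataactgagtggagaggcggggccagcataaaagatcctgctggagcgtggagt

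In wild type with DMSO the 56 loci summed to 20073 FPKM, 2.94% of the sum over all loci. Of them 46 reached 1 FPKM in at least 1 group, and these same 46 were tested by the authors in all 4 comparisons. At or above 1000 FPKM in wild type with DMSO stood 3 loci, 19 lay from 100 to 1000, 15 from 10 to 100, 9 from 1 to 10 and 10 below 1. Cyp2e1, which oxidises ethanol and paracetamol (chromosome 7, 147949731 to 147960876, mm9), read 5692 FPKM, the highest of the members. Next came the locus that joins Cyp3a11 and Cyp3a41a at 4003 and a second Cyp3a11 locus on the same interval (chromosome 5, 146319533 to 146691430) at 1541. Both Cyp3a11 loci come from 1 stretch of assembled transcripts, and their split is an estimate. Cyp2c29, an arachidonate epoxygenase gene, read 982 FPKM and the locus of Cyp2a5 and Cyp2b19 read 827. Cyp2a4 followed at 701, the naphthalene-oxidising Cyp2f2 at 592, Cyp2d26 at 528, Cyp2c50 at 503 and Cyp2a12 at 498. Cyp2c70, which makes the muricholic acids of mouse bile, stood at 2 loci of 1 interval with 439 and 9.34 FPKM, and Cyp2c37 read 361. Below 1 FPKM in every group were Cyp2c65, Cyp2c66, Cyp2d34, Cyp2j8, Cyp2j11, Cyp2j12, Cyp2j13, Cyp2s1, Cyp2t4 and Cyp2w1. Among these the highest value was 0.358 FPKM, for Cyp2s1 in the knockout with DMSO, and Cyp2c66, Cyp2j11, Cyp2j12 and Cyp2w1 are listed at 0 in all 4 groups.

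**Figure D1:**
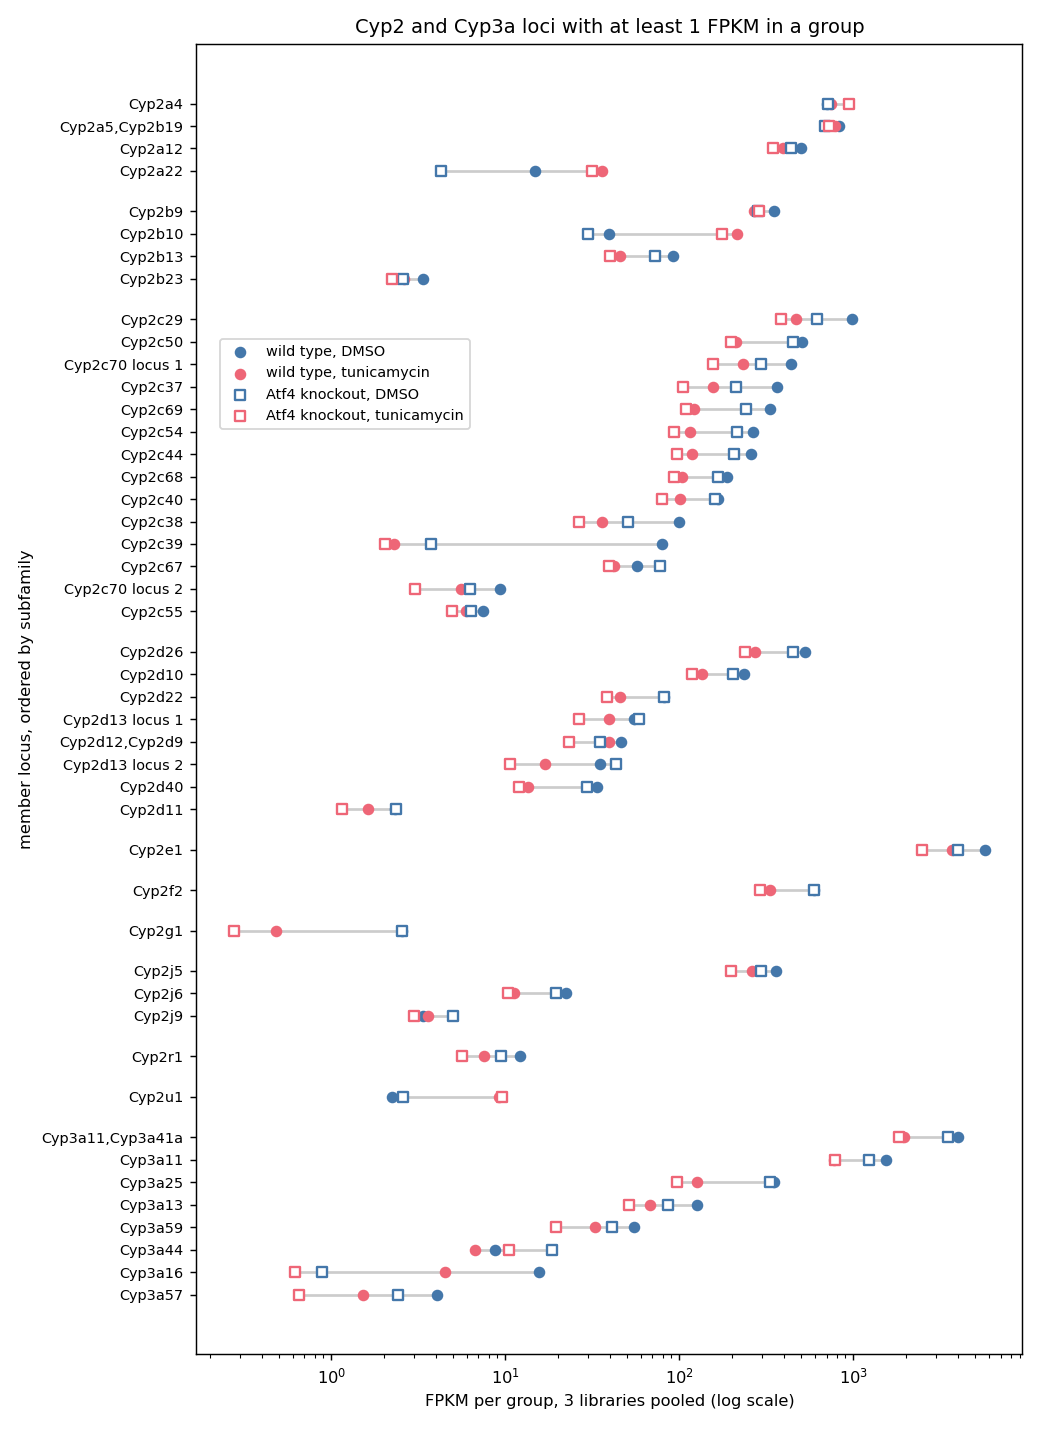
FPKM of the 46 loci with at least 1 FPKM in a group, 1 row per locus by subfamily, on a log axis; filled circles are wild type, open squares the Atf4 knockout, blue DMSO and red tunicamycin, each the authors' pooled value of 3 libraries. Most rows have both red marks left of both blue ones, whereas Cyp2b10 and Cyp2u1 have them to the right. Cyp2a4 and Cyp2a22, which were not called, have them to the right as well.

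Cyp3a genes held 30.4% of the summed member FPKM in wild type with DMSO, Cyp2e1 28.4%, the Cyp2c genes 18.6%, the Cyp2a genes 10.2%, the Cyp2d genes 5.07%, Cyp2f2 2.95%, the Cyp2b genes 2.40% and the Cyp2j genes 1.92%. After tunicamycin the wild-type member sum was 12041 FPKM, and the knockout sums were 15950.4 with DMSO and 10177 after tunicamycin. As shares of all loci these were 2.15%, 2.79% and 2.003%. Of the level in wild type with DMSO, the Cyp2c sum stood at 45.9% in wild type with tunicamycin, the Cyp3a sum at 48.6%, the Cyp2d sum at 55.4% and Cyp2f2 at 56.0%. The Cyp2e1 level stood at 64.5% and the Cyp2j sum at 71.3%, against 96.2% for Cyp2a and 110.3% for Cyp2b. The subfamilies therefore took unequal parts of the lower total, and no test of the difference between subfamilies was made. Cyp2e1 and both Cyp3a11 loci, 56.0% of the member sum in wild type with DMSO, were not called with tunicamycin in either genotype. The sums thus rest in large part on falls that were not called. The merged locus of Cyp2a5 and Cyp2b19 was counted with Cyp2a.

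**Figure D2:**
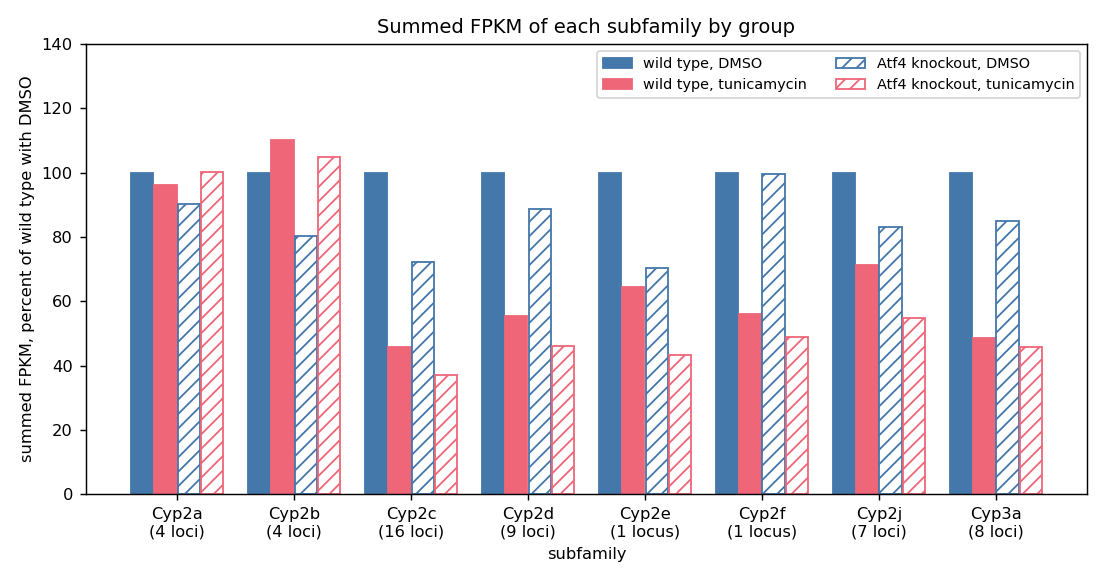
Summed FPKM of 8 subfamilies in the 4 groups, as percent of wild type with DMSO; filled bars are wild type, hatched bars the knockout. After tunicamycin the Cyp2c bars stand at 45.9% in wild type and 37.1% in the knockout, and the Cyp2a bars at 96.2% and 100.1%.

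Tunicamycin against DMSO in wild type asks how the genes moved under ER stress with Atf4 intact. In these livers 23 of the 46 tested members were lower and 2 were higher with tunicamycin. Among all tested loci 19% were called lower and 18.1% higher. With a change of at least 2-fold also required, 13 members were lower, beside 11.3% of all tested loci. Abundant transcripts were called lower more often: of loci that reached 100 FPKM in a group, members left out, 45.1% were lower, and of the 23 members at that level 14 were lower (60.9%). The median change of the 46 members was -0.82 on the log2(FPKM + 1) scale, against -0.0036 over all 13471 loci that reached 1 FPKM. In bulk liver, fewer hepatocytes and less RNA per hepatocyte cannot be told apart. Of the 4 tested general hepatocyte markers 2 were called lower in wild type, Ttr (5055 to 1671 FPKM) and Serpina1a (793 to 404). Apoa1 and Cps1 were not called. Markers of pericentral hepatocytes were lower at 4 of 5 loci and those of periportal hepatocytes at 5 of 5.

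The 2 rises were Cyp2b10 and Cyp2u1. Cyp2b10, the classical target of CAR (chromosome 7, 26682677 to 26711643), read 39.6 FPKM in wild-type DMSO livers and 214 after tunicamycin, and in knockout livers 29.7 and 177. It was high in both tunicamycin groups, whatever the genotype. The ratio of tunicamycin to DMSO was 5.40 in wild type and 5.94 in the knockout, and the log2 changes in the authors' deposited table were 2.43 and 2.57 (q 0.000396 each, the smallest in the table). Cyp2u1, a fatty acid hydroxylase gene on chromosome 3 (130991363 to 131006212), read 2.23, 9.14, 2.60 and 9.60 FPKM in the same order. Its log2 changes with tunicamycin were 2.04 in wild type and 1.89 in the knockout in the authors' deposited table. The other Cyp2b loci were not called: Cyp2b9 read 348, 269, 282 and 286 FPKM, Cyp2b13 91.3, 45.5, 72.5 and 39.6, and Cyp2b23 between 2.24 and 3.38.

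Cyp2c genes, which act on arachidonate, retinoids and drugs, had the most falls, with 11 of 14 tested loci lower in wild type and called log2 changes from -5.12 to -0.72 in the authors' deposited table. The largest fall was that of Cyp2c39, a retinoic acid hydroxylase gene (chromosome 19, 39585312 to 39643019). It read 79.7 FPKM in wild-type DMSO livers and 2.29 after tunicamycin, and in knockout livers 3.75 and 2.02. Only wild type with DMSO was high, 34.9 times the wild-type tunicamycin value, and the log2 change was -5.12 in the authors' deposited table (q 0.000396). Its neighbour Cyp2c38 (39464046 to 39537565) read 99.9, 35.9, 50.4 and 26.4 FPKM, a log2 change of -1.48 in wild type in the authors' deposited table. Cyp2c29, on the other side of Cyp2c38, read 982, 469, 621 and 383 FPKM, and fell by 1.07 on the log2 scale in the same authors' deposited table (q 0.00108). Both tunicamycin groups stood below both DMSO groups for Cyp2c38 and Cyp2c29.

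Further along chromosome 19, Cyp2c69 read 331, 121, 241 and 109 FPKM, and its log2 change of -1.46 in the authors' deposited table was the largest fall of the subfamily after Cyp2c39 and Cyp2c38. Cyp2c50 read 503, 212, 449 and 198 FPKM and Cyp2c37 read 361, 156, 212 and 104, with log2 changes of -1.25 and -1.21 in wild type in the authors' deposited table. Cyp2c54 read 263, 116, 213 and 92.7 FPKM. Of the more abundant Cyp2c70 locus the values were 439, 232, 294 and 155 FPKM, a log2 change of -0.92 in the authors' deposited table, while the minor Cyp2c70 locus was not called (9.34, 5.54, 6.28 and 3.04 FPKM). The remaining falls in wild type were the epoxygenase gene Cyp2c44 (257 to 119 FPKM), Cyp2c68 (187 to 104) and Cyp2c40 (167 to 101). Cyp2c67 (57.0 and 41.9 FPKM) and Cyp2c55 (7.47 and 5.93) were not called in wild type.

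Cyp3a genes, which oxidise steroids and the largest share of drugs, were lower at 5 of 8 member loci in wild type. Cyp3a25 (chromosome 5, 146788770 to 146821194) read 348 FPKM in wild-type DMSO livers and 127 after tunicamycin, and in knockout livers 330 and 96.3, a log2 change of -1.46 in wild type in the authors' deposited table. Cyp3a16, known as a fetal form (146197178 to 146230592), read 15.6, 4.52, 0.880 and 0.614 FPKM and fell by 1.79 on the log2 scale in wild type per the authors' deposited table. Cyp3a57 read 4.03, 1.52, 2.40 and 0.654 FPKM, Cyp3a13 126, 67.8, 86.5 and 51.5, and Cyp3a59 54.8, 32.9, 40.8 and 19.6, and each was called lower in wild type. The loci with the most Cyp3a transcript were not called, at ratios of tunicamycin to DMSO of 0.488 and 0.503 in wild type. The locus of Cyp3a11 and Cyp3a41a read 4003, 1953, 3478 and 1829.7 FPKM, with a log2 change of -1.04 in wild type (q 0.346) in the authors' deposited table. Cyp3a11 alone read 1541, 775, 1223 and 781 FPKM, with -0.99 (q 0.0734, unadjusted p 0.0202) in the authors' deposited table. Cyp3a44, the last of the interval, read 8.68, 6.71, 18.5 and 10.4 FPKM and was not called in wild type.

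Among Cyp2d genes, whose products oxidise basic drugs and steroids, 5 of 8 tested loci were lower in wild type. Cyp2d26 (chromosome 15, 82620537 to 82624675) read 528, 273, 450.1 and 239 FPKM and Cyp2d40 33.6, 13.5, 29.3 and 11.9, with log2 changes of -0.95 and -1.31 in wild type in the authors' deposited table. Cyp2d10 read 236, 134, 203 and 119 FPKM and Cyp2d22 81.3, 45.8, 81.9 and 38.3. Of the 2 Cyp2d13 loci the second fell (34.8 to 16.9 FPKM, log2 -1.04 in the authors' deposited table), and the first, on the same interval, read 54.7 and 39.6 FPKM and was not called. The locus of Cyp2d12 and the male-biased Cyp2d9 (46.3 and 39.2 FPKM) and Cyp2d11 (2.31 and 1.61) were not called in wild type. Cyp2f2 (chromosome 7, 27904974 to 27918679) read 592 FPKM in wild-type DMSO livers and 332 after tunicamycin, and in knockout livers 590.02 and 290. Its log2 change in wild type was -0.84 in the authors' deposited table (q 0.00259). Cyp2j6 was the 1 of 3 tested Cyp2j loci that fell in wild type (22.4 to 11.2 FPKM). Cyp2j5, an arachidonate epoxygenase gene of liver and kidney, read 360, 260, 295 and 198 FPKM and missed the threshold (q 0.144 in wild type, authors' deposited table), and Cyp2j9 read 3.38 and 3.59.

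No Cyp2a gene was called. None of the 4 loci passed the threshold with tunicamycin in either genotype by Cuffdiff, and none had an unadjusted p under 0.05. Cyp2a4 (chromosome 7, 27092211 to 27100107) read 701 FPKM in wild-type DMSO livers and 748 after tunicamycin, and in knockout livers 716 and 947. The Cyp2a5 and Cyp2b19 locus read 827, 787, 683 and 721 FPKM, Cyp2a12 498, 394, 436 and 345, and Cyp2a22 14.9, 36.1, 4.29 and 31.4. The ratio of tunicamycin to DMSO in wild type was 1.07 for Cyp2a4 and 0.951 for the Cyp2a5 locus, and the Cyp2a22 ratio of 2.43 carried a q of 0.795 in the authors' deposited table. Cyp2e1 read 5692, 3669, 4009.6 and 2464 FPKM, and its log2 change of -0.63 in wild type was not called (q 0.417, authors' deposited table). Cyp2r1, a vitamin D hydroxylase gene, read 12.1, 7.55, 9.44 and 5.63 FPKM, and Cyp2g1, best known from the olfactory mucosa, 2.55, 0.482, 2.53 and 0.275. Neither was called.

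**Figure D3:**
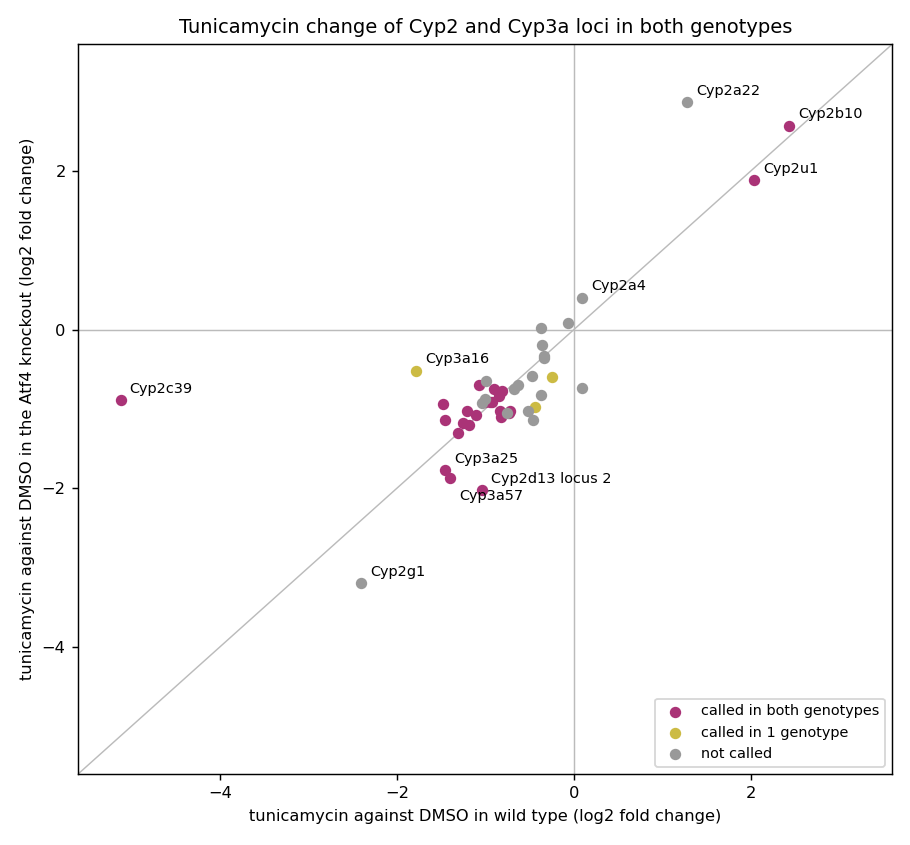
Deposited log2 fold change of tunicamycin against DMSO in wild type (horizontal) and in the knockout (vertical), 1 point per tested locus, with the line of equal change; colours mark loci called in both genotypes, in 1 or in none. Cyp2c39 lies far left of the rest at -5.12 and -0.89, and Cyp2b10 and Cyp2u1 lie at the upper right.

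In the knockout, tunicamycin against DMSO found 24 of 46 tested members lower and 2 higher, beside 14.8% and 18.1% of all tested loci. Loci of 100 FPKM or more other than members were lower in 38.6%, and members of that level in 14 of 23. The rises were again Cyp2b10 and Cyp2u1, and 22 loci were lower in both genotypes, which is 95.7% of the falls in wild type and 91.7% of those in the knockout. Over all loci the shares lower in both were 68.3% of the falls in wild type and 84.6% of those in the knockout, and the difference from the members was not tested. With a change of at least 2-fold also required, 13 members were lower in the knockout, beside 8.33% of all tested loci. Called in wild type alone was Cyp3a16, and in the knockout alone Cyp2c67 (77.5 to 39.3 FPKM, log2 -0.98 in the authors' deposited table) and the Cyp2d12 and Cyp2d9 locus (34.9 to 23.1 FPKM, log2 -0.59 in the same authors' deposited table). The largest called falls were those of the second Cyp2d13 locus (43.2 to 10.6 FPKM, log2 -2.03), Cyp3a57 (-1.87), Cyp3a25 (-1.77), Cyp2d40 (-1.30) and Cyp2c54 (-1.20), all from the authors' deposited table. On the same interval the first Cyp2d13 locus was not called (log2 -1.14, q 0.205, authors' deposited table). Cyp2c39 fell by 0.89 in the authors' deposited table (q 0.0352), from a knockout DMSO value already low. By subfamily 12 of 14 Cyp2c, 6 of 8 Cyp2d and 4 of 8 Cyp3a loci were lower, with Cyp2f2 (-1.03) and Cyp2j6 (-0.91) in the authors' deposited table. The median change over the 46 members was -0.84 on the log2(FPKM + 1) scale, against 0.024 over all 13471 loci. Whether the responses of both genotypes differ was not tested for any member. Both groups of this comparison ran on different lanes, so that lane and treatment cannot be told apart here. The tunicamycin group is the one with high adrenal, muscle and fat markers, whose part in the members' values was not tested.

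Between genotypes under DMSO, the question is how knockout livers differ without added stress. Here 5 of 46 tested members were lower in the knockout (10.9%) and none was higher by Cuffdiff, beside 1.47% and 1.39% of all tested loci. At an unadjusted p under 0.05 there were 12 lower and 1 higher, the higher being Cyp2c67, beside 3.85% and 3.28% of all tested loci. With a change of at least 2-fold required beside q, 2 members were lower, beside 0.318% of all tested loci. Cyp2c39 read 79.7 FPKM in wild-type and 3.75 in knockout livers, 21.3 times less, with a log2 change of -4.41 in the authors' deposited table. Cyp3a16 read 15.6 and 0.880 FPKM, 17.7 times less, with -4.15 in the authors' deposited table (q 0.000396 for both genes). The other 3 changes were smaller. Cyp2c38 read 99.9 and 50.4 FPKM (log2 -0.99), Cyp2c37 361 and 212 (-0.77) and Cyp3a13 126 and 86.5 (-0.55), with the log2 values from the authors' deposited table. Cyp3a13 lost its call with p adjusted over this comparison only (q 0.331). Of the most abundant genes, Cyp2e1 had a log2 change of -0.51 (q 0.559), Cyp2c29 one of -0.66 (q 0.0566) and Cyp2f2 one of -0.0059 (q 0.992) in the authors' deposited table. The median of the 46 members was -0.28 on the log2(FPKM + 1) scale, against -0.066 over all loci. The knockout DMSO libraries alone ran on lane 5, and 6 of 7 endothelial markers were higher in them, so that lane and genotype cannot be told apart and the part of cell makeup was not tested.

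**Figure D4:**
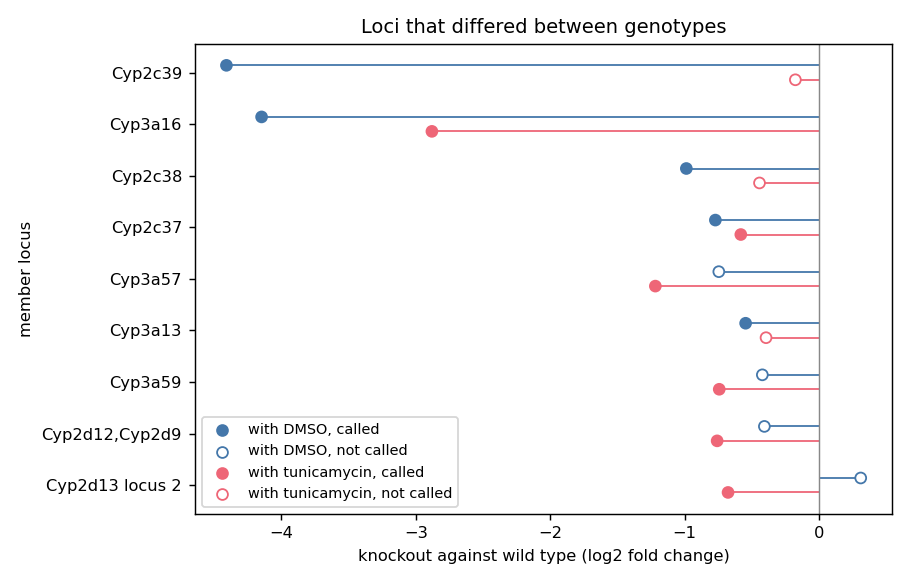
Deposited log2 fold change of knockout against wild type under DMSO (blue) and under tunicamycin (red) for the 9 loci called in either comparison; filled points are called, open points are not. Cyp2c39 (-4.41) and Cyp3a16 (-4.15) stand far left under DMSO, and under tunicamycin Cyp3a16 (-2.88) does.

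Under tunicamycin 6 of 46 tested members were lower in the knockout than in wild type (13%) and none was higher by Cuffdiff, beside 2.19% and 3.73% of all tested loci. At an unadjusted p under 0.05 there were 9 lower and 0 higher, beside 4.61% and 5.78% of all tested loci. With the 2-fold requirement 2 members were lower, beside 0.61% of all tested loci. Cyp3a16 read 4.52 FPKM in wild-type and 0.614 in knockout livers, 7.37 times less, with a log2 change of -2.88 in the authors' deposited table. Cyp3a57 followed at 1.52 and 0.654 FPKM (log2 -1.22, q 0.0441), then the Cyp2d12 and Cyp2d9 locus at 39.2 and 23.1 (-0.76) and Cyp3a59 at 32.9 and 19.6 (-0.74), with log2 and q from the authors' deposited table. The second Cyp2d13 locus read 16.9 and 10.6 FPKM (-0.68) and Cyp2c37 156 and 104 (-0.58), again with log2 values of the authors' deposited table. Cyp3a16 and Cyp2c37 were thus lower under DMSO and under tunicamycin. Cyp2c39 read 2.29 and 2.02 FPKM and was not called (log2 -0.18, q 0.798, authors' deposited table). The median of the 46 members was -0.22 on the log2(FPKM + 1) scale, against -0.039 over all loci. The count depended on the threshold, and with q computed within this comparison alone 3 members were lower, without Cyp3a57 (q 0.191), the second Cyp2d13 locus (0.142) and Cyp2c37 (0.0986). All libraries of this comparison ran on lane 4, the adrenal, muscle and fat markers were high in its knockout group, and their part in these differences was not tested. Each genotype comparison shares 1 group with each tunicamycin comparison, so these are not independent of each other.

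Members differ in how much of their sequence and of their assembled interval is their own. Of the 46 tested members 14 lie on an interval that holds another locus as well, among them the Cyp3a11 pair, Cyp3a44, Cyp2b9, Cyp2b13, Cyp2a22, Cyp2g1, Cyp2j5 and Cyp2r1. With tunicamycin in wild type 2 of these 14 were called, against 23 of the 32 with an interval of their own. For all loci the figures were 28% and 40.9%. In the knockout 2 of 14 and 24 of 32 were called, against 24% and 36.6% of all loci. The median deposited log2 change in wild type was -0.72 on shared intervals and -0.84 on intervals of their own in the authors' deposited table. Of the 50-base windows of the Cyp2c40 transcript 72.12% occur in another gene, and of Cyp2c69 54.79%, and both were called. For Cyp2a4 the share is 38.01%, for Cyp2b10 10.21%, for Cyp2c39 12.05% and for Cyp2c29 2.08%, and for Cyp2f2, Cyp2c70, Cyp2c44, Cyp2r1 and Cyp3a13 no window is shared. The level of a gene with a high share depends on how the authors' tools divided reads between copies. Cyp3a41a and Cyp3a41b, 99.87% identical, have loci apart from the members as well. The locus named Cyp3a41a alone read 9.34, 92.4, 0.660 and 64.8 FPKM and was not called with tunicamycin in wild type (log2 3.31, q 0.326, authors' deposited table).

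**Figure D5:**
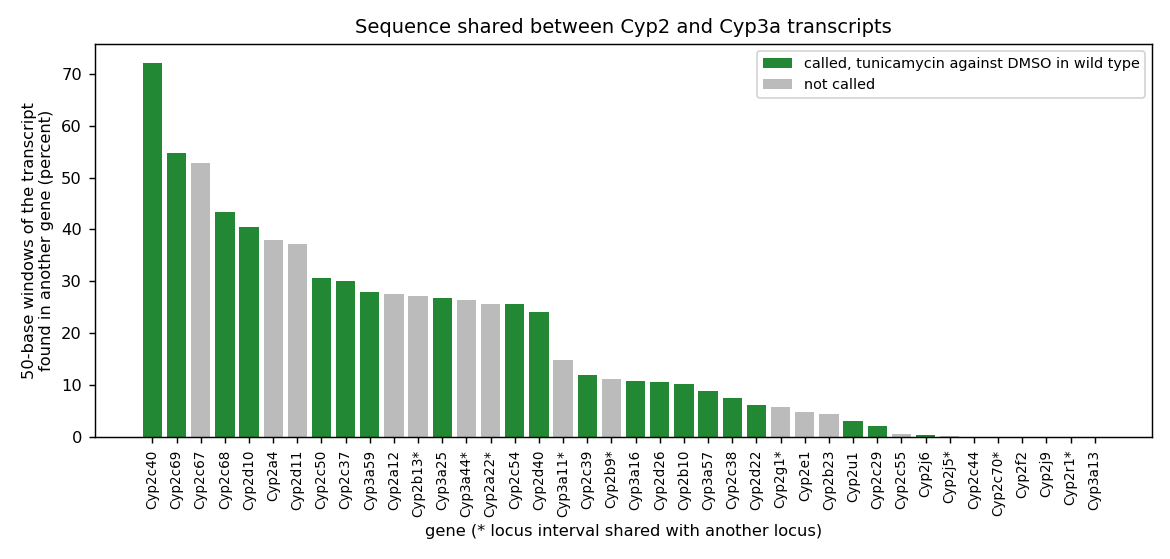
Percent of the 50-base windows of each transcript that occur in another gene, for member genes with a tested locus of a single name, in falling order; green bars were called with tunicamycin in wild type, grey bars were not, and an asterisk marks a locus interval shared with another locus. Cyp2c40 leads at 72.12% and was called, and genes without a visible bar share no window or almost none.

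Of 15 loci for electron donors and for haem synthesis and breakdown 8 were lower and 3 higher with tunicamycin in wild type, beside 19% and 18.1% of all loci. Por read 415 FPKM in wild-type DMSO livers and 182 after tunicamycin, and in knockout livers 382 and 157. Alas1, the rate-limiting enzyme of haem synthesis, read 279.7, 41.3, 378 and 64.0 FPKM, with a log2 change of -2.76 in wild type in the authors' deposited table. It was higher in the knockout than in wild type under tunicamycin (log2 0.63, q 0.00449, authors' deposited table). Hmox1, which breaks haem down, read 15.9, 29.8, 16.1 and 17.5 FPKM, rose in wild type (log2 0.91) and was lower in the knockout under tunicamycin (-0.77), both in the authors' deposited table. Knockout livers had 8 of the 15 lower and 1 higher after tunicamycin, beside 14.8% and 18.1% of all loci.

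Of 28 regulators of these genes 14 were lower and 3 higher with tunicamycin in wild type, beside 19% and 18.1% of all tested loci. In the knockout 15 were lower and 2 higher, beside 14.8% and 18.1%. CAR (Nr1i3), the inducer of Cyp2b10, read 177, 15.2, 147.5 and 15.7 FPKM, log2 changes of -3.54 and -3.23 with tunicamycin in the authors' deposited table. The CAR transcript was lower in the tunicamycin groups, in which Cyp2b10 was higher, and a link between these changes was not tested. PXR (Nr1i2) read 40.3, 29.0, 46.3 and 31.7 FPKM and was called lower in the knockout alone (log2 -0.54, q 0.0295, authors' deposited table). HNF4A (Hnf4a) read 209.7, 186, 199 and 120.5 FPKM, was lower with tunicamycin in the knockout (log2 -0.72) and was lower in the knockout than in wild type under tunicamycin (-0.63, q 0.0339), per the authors' deposited table. C/EBP alpha (Cebpa) read 206, 35.1, 145 and 40.7 FPKM. The 3 that rose in wild type were Foxa3 (28.9 to 44.7 FPKM), Nr5a2 (23.0 to 36.1) and Rora (10.7 to 53.2). Of 15 growth hormone and sex-bias regulators 9 were lower in wild type and 10 in the knockout, beside 19% and 14.8% of all tested loci. Among 19 other P450 loci of the liver 11 were lower and 2 higher in wild type, beside 19% and 18.1% of all tested loci. Cyp1a2, an oxidiser of caffeine, read 452, 211, 433 and 180.5 FPKM. The 19 include Cyp3a41a and Cyp3a41b, which the member rule leaves out because their symbols end in a letter. Neither was called with tunicamycin in wild type. Of 10 enzymes that act beside P450s on arachidonate, steroids and drugs 7 were lower in wild type and 8 in the knockout. The shares of all tested loci were 19% and 14.8%. Among loci that reached 100 FPKM in a group, members left out, 45.1% were lower in wild type and 38.6% in the knockout. Whether these lists differ from loci of like abundance was not tested.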

How the data were processed

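Livers of 4 groups of 3 libraries were compared. The submitters' processing notes name bcl2fastq, TopHat2 2.0.4, Cufflinks, Cuffdiff and the build mm9. Pooled FPKM per locus and group were deposited by the authors. For each comparison they deposited Cuffdiff's log2 fold change, its test statistic (a score), p-value and q-value, per the file headers. The sources used here give neither annotation nor filters. Locus starts were shifted to count from 1. Of the 6 deposited comparisons 4 were used, and 1 column was not used.

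From these values ratios, sums, shares and medians of log2((FPKM + 1)/(FPKM + 1)) were computed with pandas 2.3.3 and numpy 2.4.6 (Python 3.11.15), and sequences were compared with Biopython 1.88. A locus counted as called at a deposited q under 0.05 with status OK. The Benjamini-Hochberg step used for an alternative was tested on simulated data. Named genes were the 12 most abundant members in wild type with DMSO, the 5 largest called rises and falls of each comparison among loci of at least 1 FPKM, the most abundant member of any subfamily left, and Cyp2b10, Cyp3a11, Cyp2e1, Cyp2a5, Cyp2r1 and Cyp2u1; the others are named to account for every member. The members and the lists were chosen with earlier results of these data known. A symbol with several loci was read at the locus of that name with the highest mean. Sequences were matched by symbol on GRCm38, and no coordinate was converted.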

Additional observations from a re-analysis of the deposited data

How the results depend on the processing

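With the values pooled by group, no library could be left out. No paired analysis was possible because the table holds no values per library and the labels number no replicates. With a change of at least 2-fold required beside q under 0.05, tunicamycin lowered 13 members in either genotype (13 and 13), and 2 were lower in the knockout under DMSO and 2 under tunicamycin. With q within the comparison 3 were lower in the knockout under tunicamycin, and with q under 0.01 also 3. Medians over every member locus, unexpressed ones included, for tunicamycin were -0.65 (wild type) and -0.70 (knockout). With q within the comparison Cyp2c37 (q 0.0986), the second Cyp2d13 locus (0.142) and Cyp3a57 (0.191) lost their call under tunicamycin and Cyp3a13 (0.331) under DMSO, while Cyp2j5 gained one in the knockout (0.0431); the other 111 results of named genes kept their side of the threshold. A pseudocount of 0.1, a limit to loci of a single name and, both chosen after seeing the data, a limit to loci with an interval of their own and centring on the median of all loci moved no count past 1.5 times and no median by over 0.1. Depth is unknown.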

Other observations

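Genes known to differ between the sexes of mice stood on both sides, and the labels give no sex. Among genes known as female-biased, Cyp2b9 read 348 FPKM in wild type with DMSO, Cyp2b13 91.3, Cyp2a4 701 and A1bg 107. Of those known as male-biased, Cyp4a12a read 0.660 FPKM, Hsd3b5 6.71, Mup20 23.9 and the Cyp2d12 and Cyp2d9 locus 46.3. A1bg was higher in the knockout than in wild type, with 234 FPKM under DMSO (log2 1.13) and 25.4 under tunicamycin (0.80), and Hsd3b5 was lower in the knockout under tunicamycin (-2.91), all in the authors' deposited table. Under tunicamycin Cyp4a12a read 2.26 FPKM in wild-type and 0.445 in knockout livers (log2 -2.35, authors' deposited table). Cux2, a female-biased repressor gene, read 10.6 FPKM in wild-type DMSO livers and 0.900 after tunicamycin, and 7.31 and 0.568 in knockout livers. The adrenal, muscle and fat markers were high in the knockout tunicamycin group, and their part in these values was not tested.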
